A study of Mus musculus with 12 samples.

Results

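The knockout effect averaged over both mammary epithelial cell types was estimated from all 12 libraries of the series, with 6 control and 6 knockout-labelled libraries and 1 genotype term shared by basal and luminal cells. Of 27179 genes in the count table, 14903 passed the filter on low counts and entered the fit. The average term called 269 of them (1.81%) at a Benjamini-Hochberg adjusted p under 0.05. Of these, 221 were higher (1.48% of genes tested) and 48 were lower (0.322%) in the knockout-labelled libraries. The rises included the agouti signalling gene a, the formin gene Fmn2 and the glutamate receptor subunit gene Gria4, and the falls the salivary-type secretory gene Smr3a and the casein genes Csn1s1 and Csn2.

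Controls were female mice with the Foxp1(fl/fl) genotype, in which both copies of Foxp1 carry sites for the Cre recombinase. Knockouts were MMTV-cre/Foxp1(fl/fl) females, which carry the same floxed alleles and in addition a Cre transgene under the mouse mammary tumour virus promoter. That promoter acts in mammary epithelium and is not particular to the basal or the luminal type. Since the labels give the transgene to the knockouts alone, an effect of Cre itself and an effect of Foxp1 deletion cannot be told apart here. The labels used here give neither the age of the mice nor the strain background of each genotype. Basal and luminal epithelial cells from each genotype gave 4 groups of 3 biological replicates, per the labels. No agent was given to any group.

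The mammary duct is a bilayer of epithelium. Basal cells line its outer face, contract, and include cells with stem cell activity, whereas luminal cells line the lumen, sense hormones or make milk. Foxp1 belongs to the forkhead family of transcription factors, binds DNA as a dimer with other Foxp proteins and is best known as a repressor. A term averaged over both cell types can be called on a large effect in a single population. A call alone therefore does not show a shared effect. All 269 called genes had folds of the same sign in both cell types. Of these, 113 were also called within luminal cells only, 27 within basal cells only, 20 within both and 109 within neither. The term can also miss a gene whose effects in the 2 populations run in opposite directions.

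Total counts lay between 9769361 and 11133908, except for luminal knockout-labelled replicate 3 with 15449513. Summed levels of the 20 basal and myoepithelial markers were 24070 to 31770 CPM (counts scaled to library size) in the basal libraries and 718 to 2578 CPM in the luminal ones. The 14 pan-luminal markers summed to 1919 to 4125 CPM in basal and 11930 to 26990 CPM in luminal libraries, so each population was rich in its own markers. Once the cell type was removed, the first principal component held 31.3% of the remaining variance and placed control replicates 1 and 2 between -72.8 and -31.6. Control replicate 3 lay at 31.0 in basal and 15.6 in luminal cells, within the span of the knockout-labelled libraries, which was -0.68 to 56.6. These control libraries thus stood apart from the other controls in both cell types. Without both of them the average term called 810 genes, 581 higher and 229 lower.

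Foxp1 itself (chr6:98925342-99522746, GRCm38) was not lower in the libraries labelled knockout. In basal cells its level was 221, 213 and 160 CPM in controls and 212, 193 and 284 CPM in knockout-labelled libraries. In luminal cells it was 82.3, 62.0 and 78.2 CPM against 161, 150 and 155 CPM. The groups overlapped in basal cells and did not overlap in luminal cells, where the knockout-labelled libraries were higher. Averaged over both, the log2 fold was 0.64 ± 0.18 (SE; edgeR adjusted p = 0.102). Under 2 of 24 alternative settings the gene was called higher, with DESeq2 (adjusted p = 0.0226) and with 4 group means. The count is per gene and includes reads from exons outside the floxed part, so it does not check the deletion, and the direction of every result below rests on the labels. Of 58 other tested genes within 10 Mb of Foxp1, 0 were called by edgeR's quasi-likelihood test, with 5 at an unadjusted p under 0.05 (3 higher, 2 lower) and 2 called by DESeq2. Over all 14903 genes tested edgeR called 1.81%, 2257 had an unadjusted p under 0.05 and DESeq2 called 826. The counts here and in the lists below are to be read beside those. Among the other Foxp genes tested, Foxp2 had a log2 fold of 2.02 ± 0.58 (adjusted p = 0.108) and Foxp4 one of 0.04 ± 0.13 (adjusted p = 0.922).

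The gene a (chr2:154950599-155051012, GRCm38) encodes agouti signalling protein, a secreted antagonist of melanocortin receptors best known for coat colour. In basal cells its level was 0.311, 0.447 and 0.0924 CPM in the 3 controls and 166, 129 and 144 CPM in the 3 knockout-labelled libraries. In luminal cells controls held 0.0936, 0.462 and 0 CPM against 53.1, 48.9 and 44.3 CPM. Every knockout-labelled library was far above every control in both cell types. Genes named for the largest rises and falls had to show no overlap in either cell type, so that trait is no separate result. The average log2 fold was 8.55 ± 0.38 (SE; adjusted p = 3.15e-07), the largest rise by the naming rule. It was called under each of the 24 alternative settings.

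Fmn2, which nucleates actin filaments, was close to undetected in controls. Summed over both cell types it had 3 counts in the 6 control libraries and 860 in the 6 knockout-labelled ones, a depth-adjusted ratio of 272 with an exact 95% counting interval of 92.9 to 1323. Basal knockout-labelled libraries held 29.5, 21.7 and 26.3 CPM and luminal ones 2.29, 1.97 and 2.67 CPM. The gene was therefore raised in both populations, with the higher level in basal cells (adjusted p = 8.21e-06). Such intervals cover counting error only.

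Among 6 tested genes of the glutamate receptor list, both members that passed the test rose, and they encode subunits of the AMPA type of receptor that carries fast excitatory transmission. Gria4 was at 1.35, 1.70 and 1.20 CPM in basal controls and at 30.7, 38.5 and 43.7 CPM in basal knockout-labelled libraries. In luminal cells it was at 0.0936, 0 and 0.603 CPM against 2.09, 4.38 and 8.94 CPM. Both cell types showed the rise without overlap, and the average log2 fold was 4.64 ± 0.47 (adjusted p = 0.000941). Gria2 had 1 count over all controls and 111 over all knockout-labelled libraries, of which 108 were basal, a ratio of 105 (interval 18.5 to 4202). With a correlation between libraries of the same genotype and number, Gria4 alone of the list was called (Gria2 adjusted p = 0.121, limma-voom). Gria3 (log2 fold -0.56, adjusted p = 0.578) did not pass, and the list median was -0.37 beside -0.02 over all genes tested.

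Further genes with large rises, named by the rule, were of several kinds. Cntnap4, a cell adhesion protein of the neurexin family, had an average log2 fold of 4.32 ± 0.46 (adjusted p = 0.00119). Its luminal controls held 2 counts, against 131 in luminal knockout-labelled libraries. Rab3b, a small GTPase of regulated secretion, went from 0.936, 0.740 and 1.61 CPM in luminal controls to 13.6, 20.2 and 24.1 CPM, and from 0.311, 0.268 and 0 CPM to 1.01, 1.07 and 0.543 CPM in basal cells. Its average log2 fold was 3.55 ± 0.49 (adjusted p = 0.00565). Asic2, a proton-gated sodium channel, averaged 5.33 ± 0.80. It was the 1 called gene among 38 channel genes, a share near the 1.81% called over all genes tested. Its level rose to 3.49, 5.73 and 14.3 CPM in luminal knockout-labelled libraries, while in basal cells it rested on 13 counts against 1. Atp13a5, a cation-transporting ATPase, averaged 3.93 ± 0.58 and Htr4, a serotonin receptor, 3.77 ± 0.56 (both adjusted p = 0.00724). In basal cells Htr4 rested on 22 counts against 1 in controls. Dcdc2a, a microtubule-binding protein of cilia, averaged 4.16 ± 0.65 (adjusted p = 0.00864). The rule also named the keratin gene Krt77 (5.07), the diamine oxidase gene Aoc1 (4.91), the cornified envelope gene Lce6a (4.22), the cathepsin gene Ctsj (3.56) and the aldehyde oxidase gene Aox3 (3.50). Basal controls held 2 counts each of Krt77 and Lce6a, against 74 and 16 in basal knockout-labelled libraries. The call of Lce6a was lost without luminal control 1 (adjusted p = 0.0512). That of Aox3 was lost without basal control 2, basal knockout-labelled 1, luminal control 2 or luminal knockout-labelled 1 (adjusted p 0.0503 to 0.0739).

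**Figure D1:**
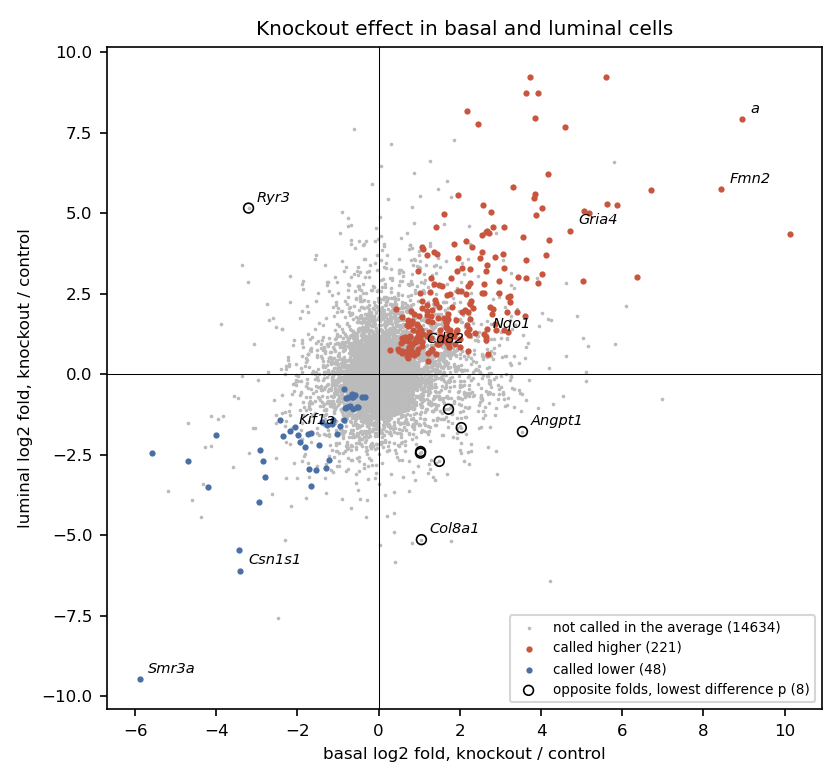
Log2 fold of knockout-labelled over control libraries in basal cells (x axis) against luminal cells (y axis) for each of 14903 genes tested, from the fit with 4 group means. Red and blue points are the 221 genes called higher and 48 called lower in the average over both cell types, and black rings are the 8 genes with the lowest p for a difference among those with folds over 1 in opposite directions. Called genes lie in the quadrants of shared sign, and the ringed genes do not.

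The strongest fall by the rule was in Smr3a, a submaxillary gland secretory gene. Luminal controls held 22927, 2247 and 14683 CPM and luminal knockout-labelled libraries 19.1, 30.8 and 6.41 CPM. In basal cells the values were 161, 311 and 834 CPM against 12.4, 4.21 and 5.43 CPM. No control overlapped a knockout-labelled library, while the controls differed widely among themselves. Its average log2 fold was -7.72 ± 1.05 (adjusted p = 0.00565).

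Smr3a belongs to a list of 20 salivary secretory genes that was included because salivary transcripts were abundant in these libraries. Of its 19 tested members, 6 were called higher and 2 lower, with a median log2 fold of 0.76, so members moved in both directions. Prp2, a proline-rich salivary protein gene, had 2 counts over all controls and 1046 over the knockout-labelled libraries, a ratio of 497 (interval 137 to 4108). Scgb2b26, a secretoglobin gene, had 2 and 417 counts, a ratio of 198 (54.5 to 1641). Prh1 rose by 7.16 and Dcpp2 fell by 3.74 on the log2 scale, while the salivary gene Bpifa2 had a log2 fold of 0.10 ± 0.74 (adjusted p = 0.967). The list's summed level ranged from 12190 to 129300 CPM in luminal controls and from 26950 to 104100 CPM in luminal knockout-labelled libraries, and from 1121 to 4550 and 273 to 5582 CPM in basal cells. Those ranges overlapped in both cell types. Prp2, Prh1 and the secretoglobins have near-identical copies among which counting can split reads, so their values are uncertain. With a correlation between libraries of the same genotype and number, 2 of the 6 rises and 1 of the 2 falls were called. How salivary transcripts came to these libraries was not tested.

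The casein genes Csn1s1 and Csn2 fell in the average. Csn1s1 (chr5:87666208-87682578, GRCm38) encodes an alpha-casein and held 52.7, 85.4 and 42.6 CPM in luminal controls against 0.598, 0.805 and 1.13 CPM in luminal knockout-labelled libraries. In basal cells it held 2.07, 1.88 and 1.66 CPM against 0, 0.269 and 0.217 CPM. The groups did not overlap in either population, and the average log2 fold was -5.56 ± 0.49 (adjusted p = 0.000256). Csn2, the beta-casein gene, held 13.2, 15.6 and 6.64 CPM in luminal controls against 0.598, 0 and 0.200 CPM, and averaged -5.16 ± 0.67 (adjusted p = 0.00481). In basal cells it rested on 15 counts in controls and 1 in knockout-labelled libraries.

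Of 14 tested members 2 were called lower and 0 higher by edgeR (at an unadjusted p under 0.05, 5 were lower and 2 higher, and DESeq2 called 3 lower and 1 higher), and the list median was -0.49 in the average, 0.29 in basal cells and -0.85 in luminal cells. The summed level of the 14 was 713.8 to 1257 CPM in basal controls against 1081 to 1939 CPM, with overlap, and 3102 to 4284 against 1498 to 2345 CPM in luminal cells, without overlap. Csn1s2a, another alpha-casein gene, had -2.01 ± 0.53 (adjusted p = 0.0815) and rested in basal cells on 1 count in controls and 0 in knockout-labelled libraries. Lalba, the regulatory subunit of lactose synthase, had a log2 fold of -1.33 ± 0.31, just outside the threshold (adjusted p = 0.0506). Csn3, which stabilises casein micelles, had -0.69 ± 0.50 (adjusted p = 0.553) and overlapped between genotypes in basal cells. Olah, a thioesterase that ends fatty acid synthesis in milk, had 2.43 ± 0.64 (adjusted p = 0.0854). Lalba passed without basal control 3 (adjusted p = 0.0185), and Csn1s2a (0.033) and Olah (0.0244) passed without luminal control 3. Ghr, the growth hormone receptor gene, was the 1 called of 16 genes in the prolactin and STAT5 list (1.18 ± 0.24, adjusted p = 0.0314), and its call was lost without any 1 of 5 libraries (basal control 2, each luminal control and luminal knockout-labelled 2, adjusted p 0.0553 to 0.0899) and with the correlation (0.0936).

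Other falls named by the rule were smaller. The rule required knockout-labelled libraries wholly below controls in both populations, which held for 32 of the 48 genes called lower. Kif1a, a kinesin motor of synaptic vesicle transport, held 76.0, 67.5 and 90.7 CPM in basal controls and 15.8, 11.7 and 24.1 CPM in basal knockout-labelled libraries. In luminal cells it held 6.92, 4.90 and 9.25 CPM against 2.79, 1.52 and 1.94 CPM. The average log2 fold was -1.99 ± 0.23 (adjusted p = 0.00205). Mdk, which encodes the heparin-binding growth factor midkine, averaged -1.79 ± 0.25 (adjusted p = 0.00565), from 75.5, 57.8 and 29.8 to 14.2, 19.3 and 15.4 CPM in basal cells and from 16.6, 12.8 and 8.35 to 4.59, 3.13 and 2.74 CPM in luminal cells. The rule further named Pianp (-3.35), Fam180a (-2.19), Rimklb (-2.18), Bend4 (-1.85) and the cytokine receptor gene Csf2rb2 (-1.79). Each of these 5 lost its call when any 1 of 4 to 9 libraries was left out, with adjusted p up to 0.113, and they are less firmly placed than Kif1a and Mdk, which kept theirs each time.

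**Figure D2:**
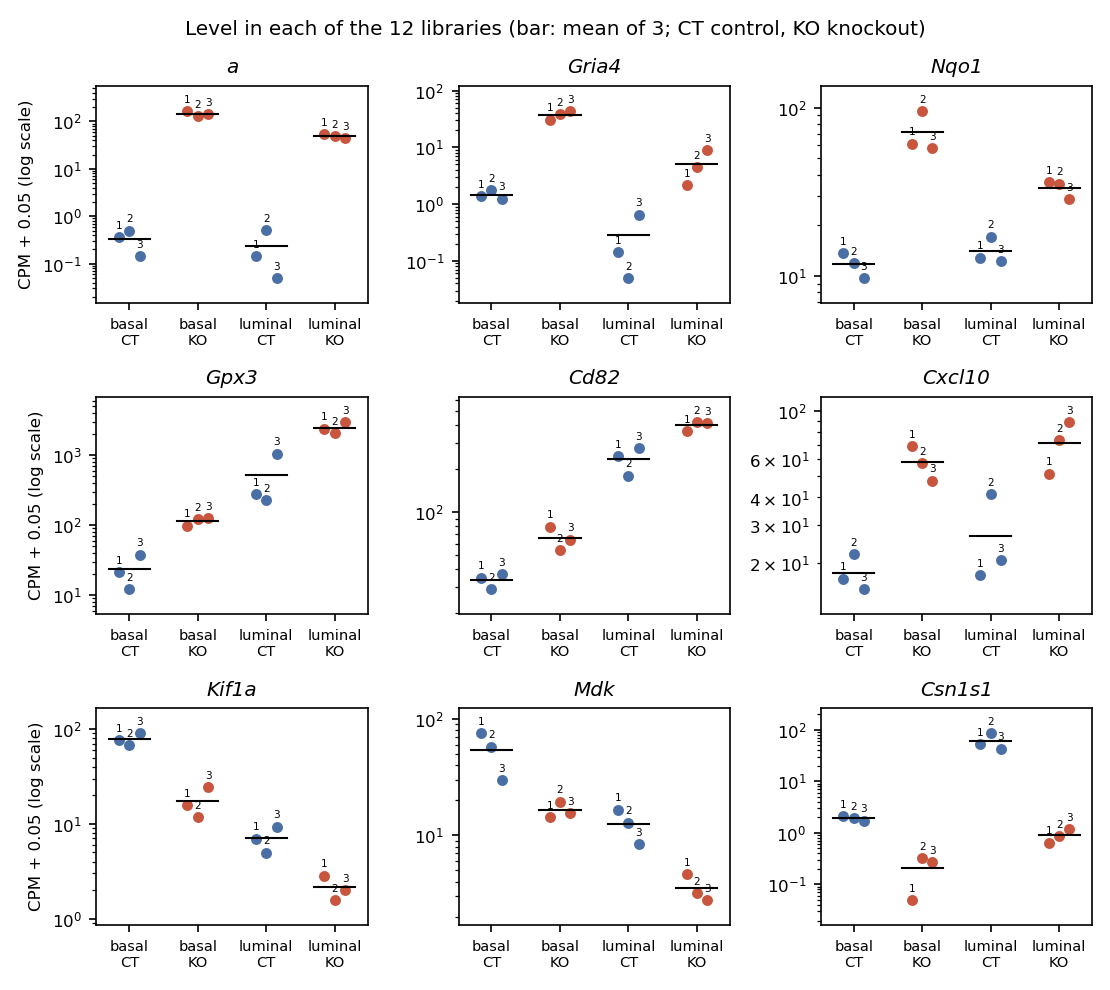
Level of 9 genes in each library, as CPM plus 0.05 on a log axis, for control (CT, blue) and knockout-labelled (KO, red) libraries of basal and luminal cells. Small figures beside the points are replicate numbers and black bars are means of 3 libraries. Blue and red points do not overlap within a cell type for any of these 9 genes. For Gpx3, replicate 3 is the control nearest to the knockout-labelled points in both cell types. For genes named among the largest rises and falls the naming rule required this lack of overlap.

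Of the 46 gene lists, that of interferon response genes held the most called members. Interferons switch on antiviral effector genes that carry a short promoter motif, the interferon-stimulated response element. All 30 listed members were tested, and 11 were called higher and 0 lower by edgeR (at an unadjusted p under 0.05, 23 were higher and 0 lower, and DESeq2 called 16 higher and 0 lower). The list median log2 fold was 0.86, beside -0.02 over all genes tested, and 29 of 30 members were above 0. As a share the salivary list held more, 8 of 19, and in the averaged fit described below the interferon list held 2 calls and the salivary list 3. Median folds within the cell types were 0.75 in basal and 0.96 in luminal cells.

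The chemokine Cxcl10, which attracts T cells, held 16.9, 21.9 and 15.1 CPM in basal controls against 69.0, 57.2 and 47.8 CPM, and 17.6, 41.4 and 20.6 CPM in luminal controls against 51.4, 73.0 and 88.8 CPM. Its average log2 fold was 1.55 ± 0.23 (adjusted p = 0.0065). Usp18, the protease that removes Isg15 from proteins and damps the receptor, rose by 1.94 ± 0.30, from 2.18, 2.14 and 4.62 to 7.70, 6.36 and 7.39 CPM in basal cells and from 7.2, 4.81 and 9.25 to 35.5, 39.4 and 49.2 CPM in luminal cells (adjusted p = 0.00836). For both genes the groups did not overlap in either cell type.

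Other called members were Oasl2 (0.99), the guanylate-binding protein gene Gbp2 (1.21), Bst2, whose product tethers budding viruses (0.83), the ubiquitin-like modifier Isg15 (1.03), Ifit1, which binds foreign RNA (1.35), Xaf1 (1.12), Rtp4 (0.97) and Mx2 (1.18). Isg15, Ifit1, Xaf1, Rtp4 and Mx2 each lost their call when any 1 of 8 to 10 libraries was left out (adjusted p 0.0523 to 0.104). Gbp2 lost its call without luminal control 1 (adjusted p = 0.0575), and Bst2 without that library or luminal knockout-labelled 2 or 3 (0.054 to 0.0658). Rsad2, the antiviral enzyme viperin, had the largest fold of the list, 2.01 ± 0.60, and did not pass (adjusted p = 0.126). In controls it was highest in replicate 3 of both cell types, at 7.67 and 12 CPM against 1.34 to 4.12 CPM in the other controls, and it passed without basal control 3 (2.63, adjusted p = 0.0229). Ifit2, with -0.39 ± 0.39, was the single member below 0. With both control replicates 3 left out 14 members were called higher. With a correlation between libraries of the same genotype and number 5 were, and in the averaged fit of 3 against 3 there were 2. Summed over the 30 members the level was 819 to 845 CPM in luminal controls and 1203 to 1712 CPM in luminal knockout-labelled libraries, and 1053 to 1448 against 1283 to 1832 CPM in basal cells, where the ranges overlapped.

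Promoters of these genes are shown because the response element is the sequence that interferon target genes are known to share. RefSeq promoter windows (GRCm38.p6, 250 bases before to 50 after the start) were found for 11360 of the tested genes, giving 14452 windows, and for 7 of the 11 called interferon genes. The motif TTTCNNTTTC, searched on both strands, was present in 3.0% of all windows, in 9.18% of those of genes called higher (18 of 196) and in 1.67% of those of genes called lower (1 of 60). It was in 5 of the 7 windows of called interferon genes (71.4%) and in 10 of 18 windows of the members not called (55.6%). A match describes the letters and is not a measured binding site. The stretches around the matches upstream of the start follow, 5′ to 3′ on the strand of the gene, with matches on either strand in capitals, where neighbouring matches of Isg15 and Bst2 overlap and run together.
Isg15 (chr4:156200845-156200926, minus strand): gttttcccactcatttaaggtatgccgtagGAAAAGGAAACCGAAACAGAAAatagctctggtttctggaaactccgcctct
Ifit1 (chr19:34640755-34640843, plus strand): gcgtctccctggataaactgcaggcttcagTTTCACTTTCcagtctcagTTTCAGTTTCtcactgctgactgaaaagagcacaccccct
Gbp2 (chr3:142620574-142620643, plus strand): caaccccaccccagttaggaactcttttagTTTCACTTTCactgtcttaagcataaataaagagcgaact
Bst2 (chr8:71537557-71537632, minus strand): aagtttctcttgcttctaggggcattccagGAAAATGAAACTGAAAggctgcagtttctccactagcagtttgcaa
Cxcl10 (chr5:92349063-92349132, minus strand): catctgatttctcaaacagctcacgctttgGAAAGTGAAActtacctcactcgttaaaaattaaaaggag

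The core letters of the forkhead site, TGTTTAC, were searched in the same windows on both strands. They were in 2.55% of all windows, 4.08% of those of genes called higher (8 of 196) and 1.67% of those of genes called lower (1 of 60), and they share no position with the response element matches printed above. The core was in 2 of 18 windows of interferon response genes not called and in 0 of 7 windows of those called. Matches were not tallied for every gene described here. As an example, Cpsf4l, a relative of the RNA cleavage factor subunit Cpsf4, had a match upstream of the start, printed with the core in capitals.
Cpsf4l (chr11:113710123-113710189, minus strand): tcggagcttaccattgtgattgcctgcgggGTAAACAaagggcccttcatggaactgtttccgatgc

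**Figure D3:**
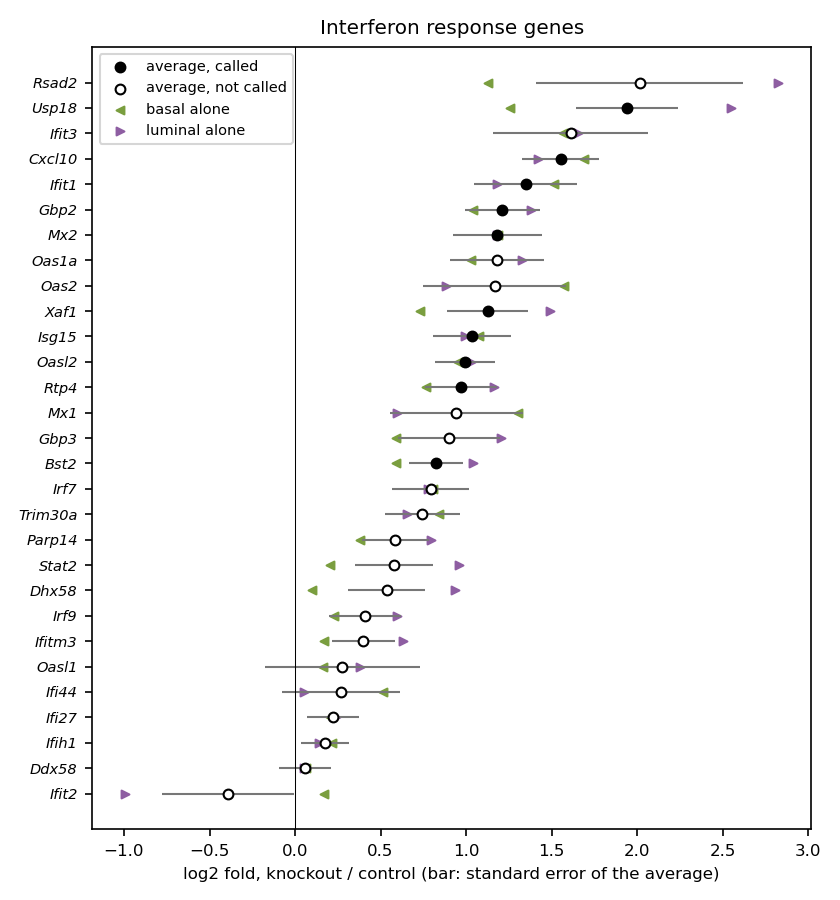
Log2 fold of 29 of the 30 interferon response genes, with the average over both cell types and its standard error and the separate basal and luminal folds. The called members shown lie between 0.83 and 1.94 in the average, and Ifit2 at -0.39 is the only member below 0.

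Other immune lists held 1 call each or none. Among 22 antigen presentation genes H2-M3, a class Ib molecule, was called higher (1.24 ± 0.27, adjusted p = 0.0421) with a list median of 0.40, and its call was lost without any 1 of 10 libraries (adjusted p up to 0.0969) and with the correlation (0.0982). Of 22 NF-kB and acute phase genes 0 were called, with 7 at an unadjusted p under 0.05, all higher, and 2 by DESeq2. Of 4 tested T and B cell markers the immunoglobulin light chain gene Igkc fell (-2.90 ± 0.58, adjusted p = 0.0275), and Igkc lost its call without any 1 of 7 libraries (adjusted p up to 0.0715) and with the correlation (0.113). The summed level of those 4 markers was 10.6 to 11.6 CPM in basal controls and 3.26 to 4.30 CPM in basal knockout-labelled libraries, and 2.81 to 4.52 against 1.40 to 3.09 CPM in luminal cells. Fewer cells of a type and less RNA per cell cannot be told apart in bulk libraries, here or in the lists that follow.

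Among stress defence genes Nqo1 and Gpx3 rose. Nqo1 (chr8:107388225-107403205, GRCm38), a quinone reductase and a textbook target of the factor NRF2, held 13.6, 11.9 and 9.70 CPM in basal controls and 61.0, 95.3 and 57.6 CPM in basal knockout-labelled libraries. In luminal cells it held 12.8, 17.1 and 12.2 CPM against 35.9, 35.3 and 28.6 CPM, with no overlap in either population. The average log2 fold was 1.92 ± 0.26 (adjusted p = 0.00565). Gpx3, the secreted glutathione peroxidase, went from 21.4, 12.1 and 37.5 to 98.2, 121 and 125 CPM in basal cells and from 275, 225 and 1049 to 2385, 2063 and 2970 CPM in luminal cells (2.27 ± 0.39, adjusted p = 0.0134). Of 23 tested genes in the NRF2 and glutathione list these were the 2 called, with a median of 0.37 and 19 folds above 0. At an unadjusted p under 0.05, 9 were higher and 0 lower, and DESeq2 called 6 higher and 0 lower. The classical targets Hmox1 (-0.11 ± 0.54, adjusted p = 0.949) and Gclc (-0.15 ± 0.40, adjusted p = 0.892), both among the 4 members below 0, did not pass.

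Of the hormone-sensing luminal markers, 4 of 20 rose, 1 fell and the list median was 0.18. With the correlation 1 was called higher and 3 lower, and in the averaged fit 2 higher and 0 lower. Foxa1, a forkhead pioneer factor for the oestrogen receptor, held 8.30, 6.52 and 13.9 CPM in basal controls against 46.1, 29.1 and 40.8 CPM, and 136, 127 and 128 CPM in luminal controls against 232, 289 and 181 CPM. Its average log2 fold was 1.41 ± 0.26 (adjusted p = 0.0191), and it was the 1 called of 22 other forkhead genes. Sytl2, a Rab27 effector of secretion, rose by 2.36 ± 0.34 (adjusted p = 0.0065) and Fxyd2, a regulator of the sodium pump, by 1.63 ± 0.30 (adjusted p = 0.0191). Tbx3, a T-box factor of breast development, rose by 0.79 ± 0.15 (adjusted p = 0.0246). The fibrinogen chain gene Fgb fell by 2.34 (adjusted p = 0.0477). Leaving out luminal control 1 ended the call of Fxyd2 (adjusted p = 0.0631), any 1 of 4 libraries that of Tbx3 (up to 0.0622) and any 1 of 10 that of Fgb (up to 0.135).

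The hormone receptor genes did not pass in the fit of all 12 libraries. Esr1, the oestrogen receptor, had 0.26 ± 0.57 (adjusted p = 0.872), Pgr, the progesterone receptor, 1.01 ± 0.46 (adjusted p = 0.324) and Prlr, the prolactin receptor, 1.16 ± 0.27 (adjusted p = 0.0525). Esr1 passed without basal control 3 (1.19, adjusted p = 0.0239) and without both control replicates 3 (1.20, adjusted p = 0.0282), and Prlr without basal knockout-labelled 1 (adjusted p = 0.045). The transcriptional coactivator Cited1 had -1.63 ± 0.49 (adjusted p = 0.125), with a call under the correlation (adjusted p = 0.0337), and the peptide hormone gene Calca -3.09 ± 0.85 (adjusted p = 0.0958). Calca in luminal controls held 483, 420 and 32.2 CPM, so replicate 3 lay near the luminal knockout-labelled values of 47.3, 13.1 and 5.07 CPM, and the gene passed without basal control 3 (adjusted p = 0.0468).

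The signalling lists that held calls held 1 or 2 each, beside 1.81% called over all genes tested. Among 37 Wnt genes the ligand Wnt5b fell by 1.28 ± 0.22 (adjusted p = 0.0134), from 35.1, 34.9 and 47.8 to 17.4, 15.9 and 27.8 CPM in basal cells and from 121, 170 and 221 to 61.3, 41.3 and 66.2 CPM in luminal cells. The Wnt effector Tcf7 fell by 0.68 (adjusted p = 0.0378), a call lost without any 1 of 11 libraries (up to 0.0967) and with the correlation (0.191). The stem cell ligand Rspo1 (-2.62 ± 0.70, adjusted p = 0.0897), the feedback target Axin2 (-1.45 ± 0.61, adjusted p = 0.279) and the inhibitor Sfrp1 (1.0 ± 0.28, adjusted p = 0.0965) did not pass, though Rspo1 did without basal control 3 (0.0439) and Sfrp1 without luminal control 3 (0.038).

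In the TGF-beta and BMP list 2 of 34 rose, with a median of 0.17. Bmp3, a ligand that opposes other BMPs, rose by 2.87 ± 0.49 (adjusted p = 0.014), from 1.96, 2.22 and 12 to 42.1, 45.7 and 68.1 CPM in luminal cells. Id3, a BMP target that blocks basic helix-loop-helix factors, rose by 1.21 ± 0.21 (adjusted p = 0.0163), from 125, 79.5 and 63.5 to 262, 246 and 238 CPM in basal cells and from 66.0, 43.2 and 37.5 to 72.2, 123 and 85.4 CPM in luminal cells. The ligands Bmp4 (1.48, adjusted p = 0.0715) and Bmp2 (1.07, adjusted p = 0.0807) fell outside the threshold, and Bmp4 passed without basal control 3 (0.024). Nrg2, an ErbB receptor ligand, was the 1 called of 16 EGF and ErbB genes (1.99 ± 0.29, adjusted p = 0.0065) and rose without overlap in both cell types. Nr1d1, the clock repressor Rev-erb alpha, was the 1 called of 19 clock genes (0.63, adjusted p = 0.0286), and Cldn8, a tight junction claudin, the 1 called of 37 junction genes (2.01, adjusted p = 0.0209). The junction share is near the 1.81% called over all genes tested. Nr1d1 lost its call without any 1 of 8 libraries (up to 0.0822) and Cldn8 without basal control 2, luminal control 1 or luminal knockout-labelled 2 (up to 0.0621). Neither was called with the correlation (Nr1d1 0.0779, Cldn8 0.119).

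Markers of fibroblasts were higher in the basal knockout-labelled libraries. The 17 fibroblast markers had a median log2 fold of 1.23 in the average, of 2.41 in basal cells and of -0.39 in luminal cells. Their summed level was 2803 to 4205 CPM in basal controls and 5513 to 7775 CPM in basal knockout-labelled libraries, without overlap, and 359 to 1164 against 500 to 1270 CPM in luminal cells, with overlap. Col6a3, a collagen VI chain, was the 1 called fibroblast marker (2.84 ± 0.56, adjusted p = 0.0251), and its call was lost without any 1 of 6 libraries (up to 0.066). Its levels were 6.85, 9.74 and 15.8 against 109, 126 and 71.2 CPM in basal cells and 2.53, 4.99 and 26.9 against 44.0, 26.7 and 114 CPM in luminal cells, where 1 control and 1 knockout-labelled library crossed. Pdgfra, a defining fibroblast receptor, had 1.32 ± 0.43 (adjusted p = 0.161). Of 33 collagen genes Col6a3 was called higher and Col9a1 lower (-2.02, adjusted p = 0.0424, lost without any 1 of 9 libraries at up to 0.104, and at 0.145 with the correlation). Of 8 pericyte markers the potassium channel regulator Abcc9 was called (1.77, adjusted p = 0.0436, lost without any 1 of 9 libraries at up to 0.10, and at 0.135 with the correlation). The part that fibroblasts played in the basal rises was not tested.

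**Figure D4:**
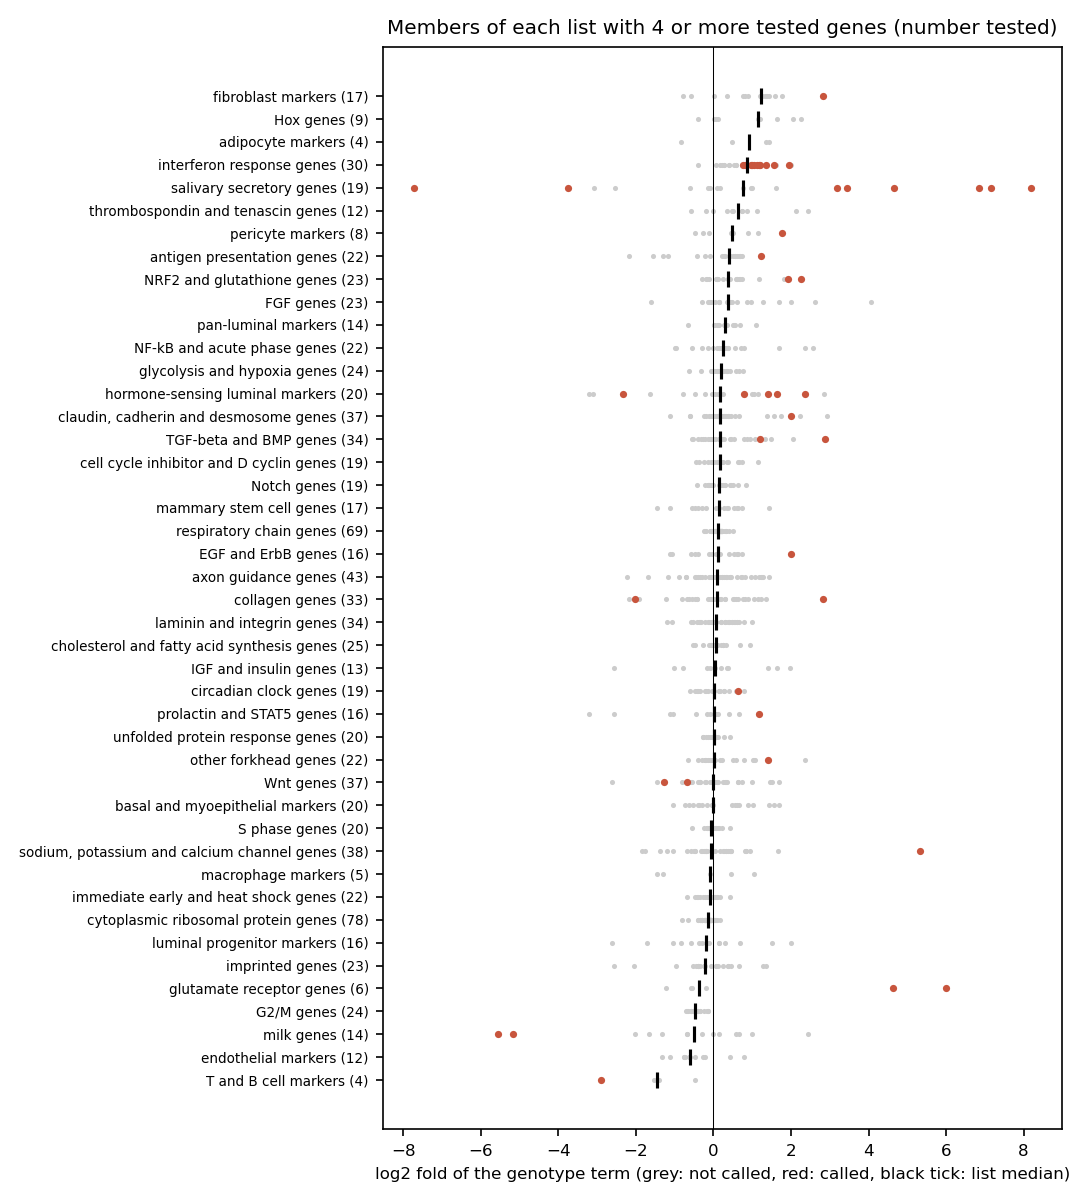
Log2 fold of the genotype term for every tested member of the gene lists with 4 or more tested members, 1 row per list with the number tested in brackets. Grey points are members not called, red points are called members and the black tick is the list median. The interferon row has 11 red points, all to the right of 0, and the salivary row has red points on both sides.

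In all, 44 of the 953 tested genes on the 46 lists were called, and 19 lists held at least 1 call. The share called over all genes tested was 1.81%, and the lists were chosen with earlier results of these data known. The other 27 lists together held 576 tested genes with 0 called by edgeR, 60 higher and 29 lower at an unadjusted p under 0.05, and 29 higher and 8 lower by DESeq2. Over all 14903 genes tested, 2257 had an unadjusted p under 0.05, and DESeq2 called 611 higher and 215 lower. The last 2 counts, pooled over the 27 lists, are thus near the shares of all genes tested. Single lists varied. Of 23 fibroblast growth factor (FGF) genes, 7 were higher and 1 lower at an unadjusted p under 0.05. DESeq2 called 6 of them higher and 0 lower, while 0 were called higher with the correlation or in the averaged fit. Of 14 pan-luminal markers 3 were higher and 0 lower by each of the 2 measures, and of 20 S phase genes 0 were either. The 24 G2/M genes of cell division were all below 0, between -0.71 and -0.14 with a median of -0.47, and 0 reached an unadjusted p under 0.05. Ribosomal protein genes had a median of -0.13 with 68 of 78 below 0, and respiratory chain genes 0.12 with 57 of 69 above 0. The 20 basal and myoepithelial markers had a median of -0.02, the 14 pan-luminal markers one of 0.30 and the 16 luminal progenitor markers one of -0.18. The summed level of the luminal progenitor markers moved in opposite directions without overlap, from 1834 to 2494 CPM in basal controls to 2848 to 4381 CPM, and from 5220 to 7424 CPM in luminal controls to 3753 to 5091 CPM, with list medians of 0.17 and -0.67. Hox genes had the largest median of a list without calls, 1.16 over 9 genes, with Hoxa10 at 2.26 ± 0.58 (adjusted p = 0.0766, and 0.0446 without luminal knockout-labelled 3).

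The average term added genes that neither cell type alone could call, and it missed others that a single cell type called. The average-only calls numbered 109, of which 83 were higher and 26 lower, and the median standard error was 0.22 for the average beside 0.303 within basal or luminal cells. Of the 269 genes called in the average, 20 were also called in both cell types alone, 113 in luminal cells only and 27 in basal cells only. Of 100 genes called within basal cells 53 were not called in the average, and of 451 called within luminal cells 318 were not. These comparisons share all their libraries, so their values stand side by side and are not separate evidence. Cd82, a tetraspanin known as a metastasis suppressor, held 34.8, 29.1 and 36.9 CPM in basal controls against 79.0, 54.5 and 64.1 CPM, and 245, 179 and 279 CPM in luminal controls against 364, 422 and 416 CPM. Its log2 fold was 0.97 in basal cells (adjusted p = 0.0584), 0.77 in luminal cells (0.0631) and 0.87 ± 0.14 in the average (adjusted p = 0.00932).

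Cpsf4l held 1.14, 1.07 and 1.02 CPM in basal controls against 3.95, 4.12 and 4.13 CPM, and averaged 1.58 ± 0.27 (adjusted p = 0.0128). Fam169a, a nuclear envelope protein gene, fell by 1.44 ± 0.25 (adjusted p = 0.0154). Tmem173, which encodes the innate DNA sensor adaptor STING, rose by 0.70 ± 0.13 (adjusted p = 0.0188) from 55.8, 42.7 and 40.1 to 79.7, 67.6 and 90.5 CPM in basal cells and from 36.9, 30.2 and 35.5 to 59.8, 44.6 and 53.7 CPM in luminal cells. The rule also named the steroidogenic electron carrier Fdx1 (0.95), Ankrd13b (-0.78) and the prostacyclin synthase Ptgis (2.36). Those 3 lost their call without luminal control 1, at adjusted p 0.0513 to 0.0575, and Ptgis also without basal control 2 (0.0524 at most).

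Called rises and falls differed in cell type preference. Of the 221 genes called higher, 115 (52.0%) had a luminal mean more than 1 log2 CPM above the basal mean, over both genotypes, beside 12.5% of all genes tested. Of the 48 called lower, 26 (54.2%) leaned to basal cells by the same measure, beside 15.7% of all tested. This is a description of the called sets, since the means include the knockout-labelled libraries that chose them. Both knockout-labelled groups lay wholly to the same side of their controls for 192 of the 269 called genes, 160 above and 32 below, and for 435 of all genes tested (2.92%), of which 302 were above (2.03%) and 133 below (0.892%). Median log2 folds were 1.82 for the called rises and -1.79 for the called falls, and the smallest called change was 0.52 in size. Just inside the threshold lay Prob1 (1.35), and just outside it Cab39l (0.70) and Dkk3 (1.70).

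An average hides opposite responses. The difference between the luminal and basal effects was called for 41 genes (0.275%), and 39 of these were not called in the average. Within single cell types the same libraries gave 91 rises (0.611%) and 9 falls (0.0604%) in basal cells, and 329 rises (2.21%) and 122 falls (0.819%) in luminal cells. Col8a1, a short-chain collagen gene, held 143, 80.1 and 86.2 CPM in luminal controls against 2.39, 3.67 and 2.67 CPM, yet 2.90, 2.68 and 2.31 CPM in basal controls against 4.66, 6.18 and 5.54 CPM. Its average of -2.18 ± 1.19 was not called (adjusted p = 0.418), but was with 4 group means (-2.04, adjusted p = 0.000443) and in the averaged fit (-2.02, adjusted p = 0.0249). Ryr3, an intracellular calcium release channel, ran the other way, falling in basal cells from 19.1, 15.5 and 7.48 to 0.507, 2.87 and 1.09 CPM (log2 fold -3.21, adjusted p = 0.0536) and rising in luminal cells from 0.187, 0.647 and 0.201 to 7.88, 9.40 and 21.2 CPM (5.16), with an average of 0.57 ± 1.84.

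Basal and luminal libraries entered the fit as independent, and the counts depend on that. Where libraries of the same genotype and number were allowed a correlation, estimated at 0.305, limma-voom called 123 genes (104 higher, 19 lower), of which 102 were among the 269. Where each such pair was averaged to 1 value, 3 against 3, limma called 77 (68 higher, 9 lower), of which 61 were among the 269. Genes called under both, and under every other setting that gave them a value, were a, Fmn2, Gria4, Cntnap4, Dcdc2a, Atp13a5, Rab3b, Smr3a, Csn1s1, Csn2, Kif1a, Cxcl10, Usp18 and Nqo1, which are 14 of the 57 called genes that the rule named. Of these 14, Rab3b and Csn2 had no value with the filter of 1 CPM in 6 libraries and Smr3a none with the salivary genes left out. The other 43 lost their call under at least 1 setting, and among genes described above Foxa1 (adjusted p = 0.0966), Sytl2 (0.077), Asic2 (0.0637), Krt77 (0.076), Aoc1 (0.132), Cpsf4l (0.135), Prp2 (0.12), Scgb2b26 (0.114) and Gria2 (0.121) did so with the correlation. Gpx3 (0.0672), Mdk (0.0672), Cd82 (0.0755), Wnt5b (0.0755), Bmp3 (0.0572), Id3 (0.0802), Nrg2 (0.0672) and Htr4 (0.058) did so only in the averaged fit of these 2.

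**Figure D5:**
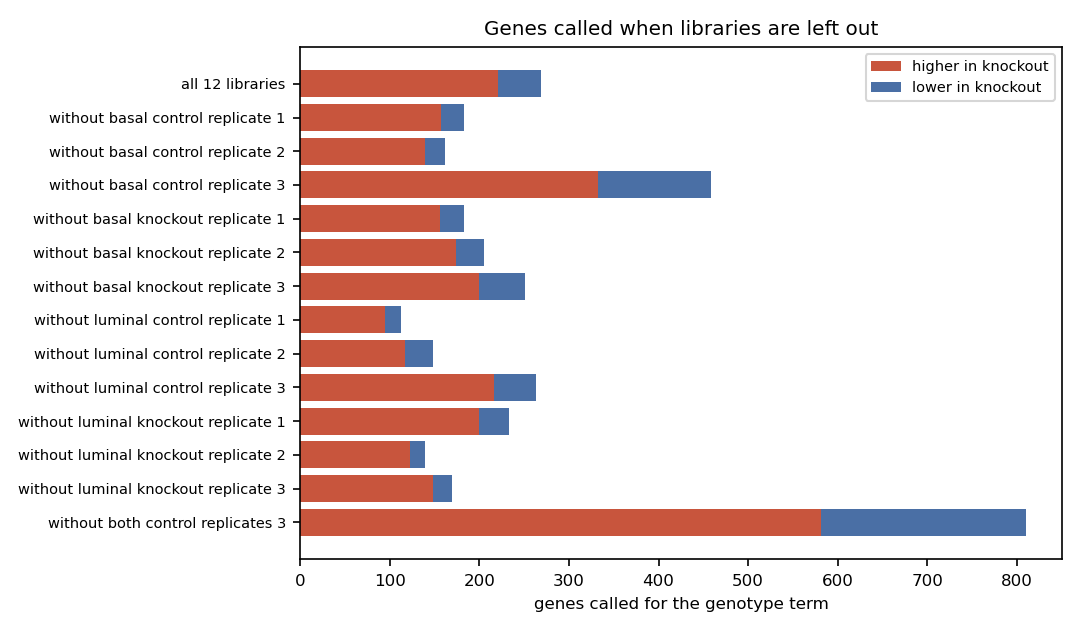
Number of genes called higher (red) and lower (blue) for the average genotype term with all 12 libraries, with each library left out in turn and with both control replicates 3 left out. Bars run from 112 genes without luminal control 1 to 459 without basal control 3 and 810 without both control replicates 3.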

How the data were processed

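Libraries were made from total RNA (RNeasy kit, TruSeq RNA v2) and sequenced on a HiSeq 2000, as the labels' protocols state. The submitters' processing notes name CASAVA 1.8.2, featureCounts and mm10, and neither aligner nor annotation is given in the sources used here. The authors deposited raw counts of reads per gene, not normalized, and 0 values differed between the series table and the 12 sample tables. The counting is not stated to use strand, so overlapping genes on opposite strands may share reads.

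Genes were kept by edgeR's default filter on the 4 groups. Counts were fitted with edgeR 4.0.16 (R 4.3.3) by the robust quasi-likelihood F test with TMM factors, a cell type term and a genotype term, leaving 9 residual degrees of freedom and a biological coefficient of variation of 33.9%. Each adjusted p in the text is that test's Benjamini-Hochberg value over 14903 genes unless another tool is named, and a gene is called under 0.05. SE is the log2 fold divided by the square root of F. Folds within a cell type, and the difference between cell types, come from 4 group means in the same tool. CPM uses TMM factors. Where a side held 3 or fewer counts, a ratio of counts with its exact 95% interval replaces the fold. The fit was tested on simulated data. The simulated libraries were independent and had the same effect in both cell types, so that test does not bear on related libraries. No libraries of a group agreed within sampling noise (chi-square per degree of freedom at least 11.7).

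Alternatives were other scalings and filters, group means, a replicate block, limma 3.58.1 (voom, with a correlation, or averaged pairs), DESeq2 1.42.0, the salivary and haemoglobin genes left out, and each library left out. The genes named are Foxp1, the 14 largest rises and 10 largest falls among called genes with average log2 CPM of at least 1 and no overlap in either cell type, the 10 average-only calls and 8 opposite genes with the lowest p, and up to 3 called members of each of 46 lists or the 1 with the lowest p. A few genes that met this rule are left out of the text but not of the counts. Other genes were picked after their values were seen. The members and lists were chosen with earlier results of these data known. Positions and promoters are from RefSeq on GRCm38.p6, matched by gene number for 14598 tested genes.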

Additional observations from a re-analysis of the deposited data

Results flagged for a closer look

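For the 9 genes below the luminal and basal effects differed, by the difference term of the edgeR fit with 4 group means (adjusted p over all 14903 genes), and 8 of them were selected for that difference and for opposite folds. The luminal minus basal value (log2) was -6.19 for the collagen gene Col8a1 (adjusted p = 4.94e-05), -5.33 for the vessel ligand Angpt1 (0.00184), -4.20 for the adenylyl cyclase Adcy5, -2.81 for the netrin Ntn1, -3.48 for Tmtc1 and 8.37 for the calcium channel Ryr3 (each 0.00522). It was -3.44 for the cholesterol hydroxylase Ch25h (0.015) and -3.70 for the lysophosphatidic acid receptor Lpar1 (0.0153). Angpt1 rose by 3.54 in basal cells and had -1.78 in luminal cells, and Lpar1 had 2.04 and -1.66. None of these 8 was called by the genotype term shared by both cell types, and of them Col8a1 alone was called in the average under other settings, with 4 group means (adjusted p = 0.000443) and with averaged pairs (0.0249).

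Tnfsf11, the RANK ligand gene of the progesterone response, differed by -6.08 (adjusted p = 0.0392). It held 29.3, 36.9 and 13.6 CPM in luminal controls against 1.10, 0.626 and 0.400 CPM, and under 0.7 CPM in every basal library, and the average of -3.21 ± 1.10 was not called (adjusted p = 0.181), though it was in limma-voom (0.0312), with the correlation (0.0486) and without both control replicates 3 (0.0457).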

How the results depend on the processing

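No called gene changed direction under any alternative run. The count of 269 (221 higher, 48 lower) became 454 (369, 85) with 4 group means, 123 (104, 19) with a correlation in limma-voom, 77 (68, 9) with averaged pairs, and 826 (611, 215) with DESeq2. It was 275 with RLE scaling, 259 with library size alone, 251 without the filter, 200 with at least 1 CPM in 6 libraries, 385 with limma-voom and 270 without salivary and haemoglobin genes. Leaving out 1 library gave 112 (luminal control 1) to 459 (basal control 3) genes, 94 to 332 higher and 16 to 127 lower, and it also moved the count by over 1.5 times without basal control 2 (162), luminal control 2 (148), luminal knockout-labelled 2 (139) and luminal knockout-labelled 3 (169). Without both control replicates 3, chosen after seeing the data, 810 were called (581, 229), with all 57 called genes that the rule named among them. Of those 57, 31 were still called with the correlation and 21 in the averaged fit. The 41 genes called for a different effect, whose alternatives were also added later, became 354 with DESeq2 and 10 to 86 with 1 library left out. The causes were not tested.

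Whether replicate numbers pair control with knockout-labelled libraries is not settled by the labels. Correlations of deviations over same-number pairs were -0.0867 to 0.358 in basal cells, with 2 of 3 over 0.1, and 0.301 to 0.535 in luminal cells, with 3 of 3, so the 6 pairs together did not all pass 0.1, and 9 of 12 libraries correlated best with their own number. With the replicate block 558 genes were called (405 higher, 153 lower), 268 of them among the 269, and 106 for a different effect. Between basal and luminal libraries of 1 genotype the same-number correlations were 0.0868 to 0.473, and 12 of 12 correlated best with their own number. The labels do not say whether such libraries came from 1 animal.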

Other observations

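Genes named here are on no list and were picked after their values were seen. No tally of other genes of these kinds was made, so the values describe single genes. Ido1, which degrades tryptophan, went from 35.4, 30.3 and 107 to 599, 1599 and 1472 CPM in luminal cells and from 7.88, 2.14 and 2.59 to 5.17, 37.4 and 36.4 CPM in basal cells, where the groups overlapped (3.60 ± 0.64, adjusted p = 0.0164). The chemokine Cxcl9 had a log2 fold of 1.61, the nucleotide kinase Cmpk2 1.20, the GTPase Irgm2 1.23, Plac8 1.93, Apol9a 1.89 and the galectin Lgals9 1.07 (adjusted p 0.0215 to 0.0324), without overlap between genotypes in either cell type. Each of these 7 lost its call when luminal control 1 was left out (adjusted p 0.0512 to 0.0901) or, for some, when other single libraries were.

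C2, a complement protease of the classical pathway, held 2.18, 2.14 and 4.25 CPM in basal controls against 24.7, 23.4 and 19.3 CPM, and 5.43, 5.64 and 10.8 CPM in luminal controls against 40.9, 50.6 and 32.8 CPM. Its average log2 fold was 2.73 ± 0.25 (adjusted p = 0.000256), and it was called under the correlation fit (0.000594) and the averaged fit (0.016). Masp1, a lectin pathway protease, had 1.63 ± 0.30 (adjusted p = 0.0207), lost without luminal control 1 (0.0512), with the correlation (0.127) and in the averaged fit (0.072).

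Lepr, the leptin receptor, rose from 1.76, 2.77 and 2.49 to 4.46, 9.67 and 4.24 CPM in basal cells and from 4.58, 5.36 and 5.13 to 22.5, 33.3 and 18.6 CPM in luminal cells (1.87 ± 0.28, adjusted p = 0.00739). Aldh3a2, a fatty aldehyde dehydrogenase, rose by 1.40 ± 0.23 (adjusted p = 0.0111) and Alox15, a lipoxygenase, by 2.32 ± 0.37 (adjusted p = 0.00935), and both kept their call with each library left out. The acute phase genes Serpina3n (3.84) and Serpina3h (4.18) were high in basal knockout-labelled replicates 1 and 3, at 410 and 358 and at 113 and 94.0 CPM, and low in replicate 2, at 43.3 and 4.03 CPM. They belong to a family of similar copies, so these values are uncertain. The call of Serpina3n was lost without any 1 of 10 libraries (0.0501 to 0.093) and that of Serpina3h without any 1 of 7 (0.0509 to 0.0758), and with the correlation their adjusted p was 0.122 and 0.343.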
